A study of Homo sapiens with 14 samples.

Results

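This account covers 36 genes of glucose use: glucose uptake, glycolysis, the fate of pyruvate and lactate, glycogen storage, and the pentose phosphate pathway. They were picked by gene symbol, with earlier results of these data known, and make up 36 of the 60587 gene rows of each library. All 36 passed the filter on low counts and are among the 17838 genes tested. The libraries come from pellets of cartilage made by differentiating the human embryonic stem cell line WA01 (H1) in chondrogenic medium. RNA of the pellets was sequenced at day 21 (4 libraries), day 30 (5 libraries) and day 45 (5 libraries). All libraries share this 1 line and the medium, and the groups differ in time in culture. The labels do not say whether replicates were separate cultures, so p-values measure the spread between these libraries, which may be technical.

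Glycolysis splits glucose into pyruvate with a small yield of ATP, and lactate dehydrogenase turns pyruvate into lactate so that the pathway can run without oxygen. Glycogen is the stored form of glucose, built by synthase and branching enzyme and broken down by phosphorylase, and the pentose phosphate pathway diverts glucose 6-phosphate into NADPH and ribose. Cartilage has no blood vessels, and chondrocytes are known to rely mainly on glycolysis and to store glycogen. Many genes of the pathway are known targets of the hypoxia-inducible factors.

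Libraries held 18183776 to 33660704 expected counts. The cell type was checked by 13 chondrocyte markers, whose summed level was 43119 to 55663 CPM at day 21, 101956 to 244884 CPM at day 30 and 202424 to 317113 CPM at day 45. CPM stands for a gene's count as a rate of the library total, with totals scaled by the TMM method of edgeR, and fold changes between days are fitted to the counts on a log2 scale. A pair of library groups stood apart. In day 30 replicates 3, 4 and 5 the deviation of a gene's level from its mean over all libraries fell with gene length (Spearman rho -0.43 to -0.52 across genes), whereas in day 30 replicates 1 and 2 it was -0.01 and -0.07 and in the other libraries 0.12 to 0.26. Within day 21, replicates 1 and 2 both lay above replicates 3 and 4 for 22 of the 36 genes and below them for 1, against 23.1% above and 26.0% below over all genes tested. Results are given with and without these libraries where it matters. The library titled day 45 replicate 1 carries a treatment label of 30 days and was kept at day 45, as titled.

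As a group, these genes rose over time in culture. Between day 45 and day 21, 31 of the 36 rose, 3 fell and 2 were not called, at an edgeR adjusted p below 0.05. Of all genes tested, 57.7% were called in that comparison, 27.1% higher and 30.5% lower. Because the members were chosen with earlier results known, these shares are a reference and not a test of the set. The median log2 fold change was 1.30 over the members and -0.05 over all genes tested. All day 45 libraries lay above all day 21 libraries for 28 members and below them for 3, where 51.5% of all genes tested had no overlap. The members that fell were PFKM, LDHB and PGD, and those not called were HK1 and PFKFB2. Without day 21 replicates 1 and 2 there were 31 rises and 3 falls (median log2 1.49), against 21.0% higher and 23.1% lower of all genes tested. Without day 21 replicates 3 and 4 there were 28 rises and 2 falls (median log2 1.2), against 23.7% and 25.5%. The share of a library's counts that fell on the 36 genes together averaged 1.07 ± 0.167% at day 21 (SD, n = 4), then 1.40 ± 0.105% at day 30 and lastly 1.57 ± 0.0658% at day 45 (SD, n = 5 each). In bulk pellets, fewer cells of a type and less RNA per cell cannot be told apart. The chondrocyte marker sum was higher in the same comparison, where 9 of the 13 markers rose, 1 fell (CNMD) and 3 were not called, and most of the sum was COL2A1 (166978 CPM at day 45 and 29871 CPM at day 21, on average). Its part in these changes was not tested.

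**Figure D1:**
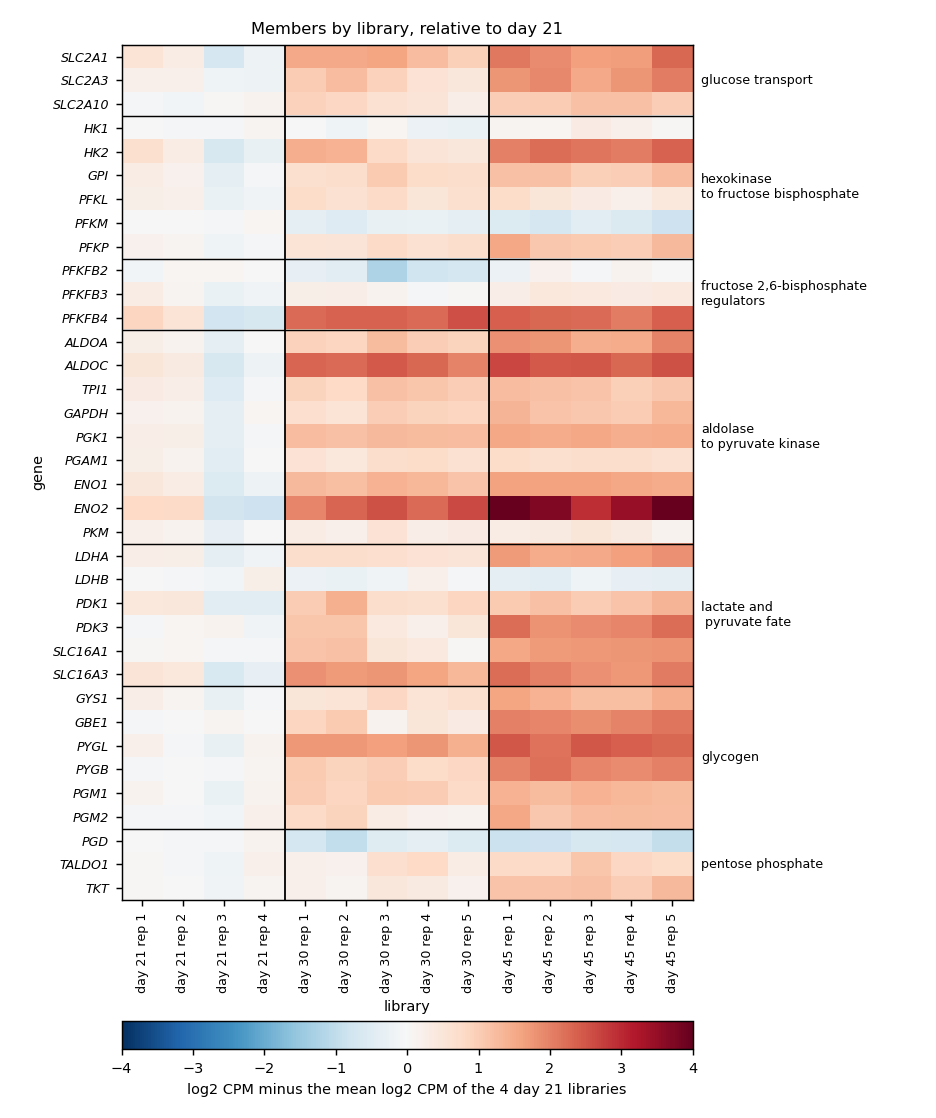
Level of each of the 36 genes (rows, grouped by role) in each of the 14 libraries (columns), as log2 CPM minus the mean log2 CPM of the 4 day 21 libraries; red is higher and blue is lower. ENO2 is the reddest row at day 45, PFKM and PGD are blue from day 30 on, and day 21 replicates 3 and 4 lie below replicates 1 and 2 in 22 of the 36 rows.

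Measured per length, as TPM, the rate of transcripts per library, most of the RNA of the set came from the steps between aldolase and pyruvate kinase. Those 9 genes summed to 9047 ± 1343 TPM at day 21 (SD, n = 4), 11631 ± 671 TPM at day 30 and 15318 ± 761 TPM at day 45 (SD, n = 5 each), of 12551 ± 1690, 15187 ± 1080 and 21327 ± 949 TPM for the whole set. GAPDH was the most abundant at day 45, at 7669 ± 677 TPM, followed by LDHA at 2777 ± 368, ENO1 at 2453 ± 116 and ALDOA at 1792 ± 236 TPM (SD, n = 5 each). LDHA and ENO1 did not differ beyond their spread. At the other end stood PFKFB2 at 4.33 ± 0.887 and PDK3 at 8.16 ± 1.13 TPM. TPM is shared out among all genes, and on that scale the median gene was lower by 0.34 (log2) at day 45 than at day 21. Changes on the TPM scale are therefore read against that shift.

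Of the 36 genes, 33 had a promoter in the RefSeq table (GRCh38.p14, from 250 bases before to 50 bases after the start); SLC2A3, PFKFB2 and SLC16A1 had none. ACGTG and GCGTG, the core letters bound by hypoxia-inducible factors, were searched on both strands, so that a palindrome CACGTG counts as 2 matches. At least 1 match was found in 22 of the 33 promoters (66.7%), against 61.9% of the 12402 promoters of genes tested and 48.4% of all 27305 promoters in the table. The share among the members lay near that of the genes tested. A match is a description of the letters only. The promoters of 5 genes are printed 5′ to 3′ with matches in capitals, chosen after the matches were counted: LDHA, ALDOC and PGK1, which rose and hold 6, 5 and 4 matches, and PFKM and PGD, which fell and hold 0 and 3. The first 3 were picked for their many matches: 9 members that rose hold 0 (PFKP, TPI1, PGAM1, PDK1, SLC16A3, PYGL, PGM1, TALDO1 and TKT), and LDHB, which fell, holds 1. They are LDHA at chr11:18394313-18394612 (plus strand), ALDOC at chr17:28576846-28577145 (minus strand), PGK1 at chrX:78103998-78104297 (plus strand), PFKM at chr12:48105623-48105922 (plus strand) and PGD at chr1:10398814-10399113 (plus strand).
LDHA: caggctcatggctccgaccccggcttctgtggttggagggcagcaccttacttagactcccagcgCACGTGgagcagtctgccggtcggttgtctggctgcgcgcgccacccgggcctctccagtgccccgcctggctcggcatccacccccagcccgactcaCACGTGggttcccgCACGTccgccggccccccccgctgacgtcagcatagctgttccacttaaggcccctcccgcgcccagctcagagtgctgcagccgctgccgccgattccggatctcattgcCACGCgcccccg
ALDOC: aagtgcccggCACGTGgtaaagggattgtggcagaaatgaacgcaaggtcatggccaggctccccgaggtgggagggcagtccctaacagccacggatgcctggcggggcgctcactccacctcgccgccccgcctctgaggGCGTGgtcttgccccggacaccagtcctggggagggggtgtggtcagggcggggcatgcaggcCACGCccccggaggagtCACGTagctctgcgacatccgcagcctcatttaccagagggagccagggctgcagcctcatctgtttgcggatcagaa
PGK1: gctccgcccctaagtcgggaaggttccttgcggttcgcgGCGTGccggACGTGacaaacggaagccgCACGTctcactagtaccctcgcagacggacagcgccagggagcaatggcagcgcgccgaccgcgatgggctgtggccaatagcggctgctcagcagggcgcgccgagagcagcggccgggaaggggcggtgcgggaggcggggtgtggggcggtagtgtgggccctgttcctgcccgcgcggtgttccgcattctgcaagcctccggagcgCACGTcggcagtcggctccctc
PFKM: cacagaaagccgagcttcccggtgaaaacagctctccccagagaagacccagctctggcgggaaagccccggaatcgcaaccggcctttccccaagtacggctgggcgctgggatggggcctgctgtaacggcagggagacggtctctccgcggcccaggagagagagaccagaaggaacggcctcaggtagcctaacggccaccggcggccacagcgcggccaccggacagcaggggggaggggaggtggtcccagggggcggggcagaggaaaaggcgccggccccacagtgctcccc
PGD: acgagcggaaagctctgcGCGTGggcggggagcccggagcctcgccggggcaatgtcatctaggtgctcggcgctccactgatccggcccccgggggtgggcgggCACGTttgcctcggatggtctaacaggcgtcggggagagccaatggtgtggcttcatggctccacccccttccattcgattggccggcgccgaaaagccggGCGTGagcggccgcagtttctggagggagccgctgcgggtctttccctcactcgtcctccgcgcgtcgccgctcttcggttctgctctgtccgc

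All 3 glucose transporters among the members rose by day 45. Of the other SLC2A genes tested, SLC2A6, SLC2A9 and SLC2A11 fell between day 45 and day 21 (log2 -1.17, -0.90 and -0.88). SLC2A12, SLC2A13 and SLC2A14 rose (log2 0.89, 1.76 and 2.30, SLC2A14 to an average of only 0.55 CPM), and SLC2A4 and SLC2A8 were not called. SLC2A1 encodes GLUT1, the common transporter of basal glucose uptake, and SLC2A3 encodes the high-affinity GLUT3. SLC2A1 stood at 178, 151, 76.8 and 106 CPM at day 21, at 347, 346, 366, 288 and 235 CPM at day 30, and at 530, 454, 379, 391 and 592 CPM at day 45. No libraries of different days overlapped for SLC2A1, and day 21 replicate 3 and day 30 replicate 5 were the lowest of their days. Its level was 3.67-fold higher at day 45 than at day 21 (log2 1.87 ± 0.22 SE, edgeR adjusted p = 1.39e-06). SLC2A3 stood at 22.7, 22.7, 17.5 and 17.3 CPM at day 21, at 40.2, 46.4, 37.8, 29.7 and 27.5 CPM at day 30, and at 66.9, 75.1, 56.3, 68.0 and 83.0 CPM at day 45. Here too each later day lay wholly above the earlier one, and the day 45 level was 3.48-fold that of day 21 (log2 1.80 ± 0.16 SE, edgeR adjusted p = 3.61e-08). Processed copies of SLC2A3 took between 21.8 and 29.1% of the reads of the gene and its copies in day 21 libraries, up to 12.3% in day 30 libraries and between 8.31 and 12.2% in day 45 libraries, so its counts are uncertain. With the copies added, the change was 1.51 (log2). SLC2A10 encodes GLUT10, whose loss causes arterial tortuosity syndrome, a disorder of connective tissue. Its levels were 69.7, 66.4, 74.5 and 78.8 CPM at day 21, 138, 127, 109, 104 and 86.3 CPM at day 30 and 142, 146, 161, 163 and 144 CPM at day 45. The days did not overlap for SLC2A10, day 30 replicate 5 came closest to day 21, and the level was 2.09-fold higher at day 45 than at day 21 (log2 1.06 ± 0.12 SE, edgeR adjusted p = 6.46e-07).

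Of the 6 genes from hexokinase to fructose bisphosphate, 4 rose between day 45 and day 21, PFKM fell and HK1 was not called. Hexokinases trap glucose in the cell as glucose 6-phosphate. HK2, the inducible hexokinase, stood at 44.6, 35.3, 18.2 and 23.5 CPM at day 21, at 78.4, 75.1, 49.2, 40.7 and 38.8 CPM at day 30, and at 116, 136, 126, 119 and 148 CPM at day 45. Day 45 lay above both earlier days, while day 21 and day 30 overlapped, and the level at day 45 was 4.25-fold that of day 21 (log2 2.09 ± 0.26 SE, edgeR adjusted p = 3.97e-06). HK1, the hexokinase of most tissues, stood at 367, 353, 344 and 393 CPM at day 21, at 371, 322, 385, 311 and 301 CPM at day 30, and at 394, 386, 456, 422 and 374 CPM at day 45. Its days overlapped and the difference between day 45 and day 21 was 0.16 ± 0.10 (log2 ± SE, edgeR adjusted p = 0.194). On the TPM scale, not centred on the median gene, HK1 was lower at day 45 by a log2 difference of -0.29 and passed the test there. GPI, which turns glucose 6-phosphate into fructose 6-phosphate, stood at 154, 142, 98.0 and 119 CPM at day 21, at 199, 206, 260, 212 and 204 CPM at day 30, and at 285, 287, 247, 249 and 296 CPM at day 45. Both later days lay above day 21, day 30 replicate 3 reached into the day 45 range, and the level at day 45 was 2.13-fold that of day 21 (log2 1.09 ± 0.13 SE, edgeR adjusted p = 1.16e-06).

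The phosphofructokinase subunits, which commit the sugar to glycolysis, went different ways. PFKP, named for its platelet form, stood at 89.4, 84.3, 69.4 and 74 CPM at day 21, at 116, 112, 135, 121 and 129 CPM at day 30, and at 229, 165, 162, 156 and 193 CPM at day 45. Each day lay above the one before, with day 45 replicate 1 the highest, and the day 45 level was 2.28-fold that of day 21 (log2 1.19 ± 0.12 SE, edgeR adjusted p = 2e-07). PFKM, the muscle form, stood at 74.2, 73.5, 71.9 and 78.6 CPM at day 21, at 56.3, 52.4, 60.6, 61.4 and 58.5 CPM at day 30, and at 50.8, 46.9, 56.0, 50.1 and 42.4 CPM at day 45. All libraries of both later days lay below all of day 21, and PFKM fell by 0.60 ± 0.09 on the log2 scale (edgeR adjusted p = 1.51e-05). Reads of SENP1, on the opposite strand, share 628 exon bases (8.58%) with PFKM and cannot be told apart there, since the kit does not mark the strand. PFKL, the liver form, averaged 119 ± 20 CPM at day 21 (SD, n = 4), 185 ± 13.9 CPM at day 30 and 161 ± 22.8 CPM at day 45 (SD, n = 5 each). It was 1.34-fold higher at day 45 than at day 21 (edgeR adjusted p = 0.00647), with overlapping days, and was not called without day 21 replicates 3 and 4.

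The PFKFB enzymes make and remove fructose 2,6-bisphosphate, the strongest activator of phosphofructokinase, and only PFKFB4 of the 3 members changed more than 2-fold. PFKFB1, also tested, averaged 0.319 CPM at day 21 and 0.336 CPM at day 45 and was not called. PFKFB4 stood at 26.8, 21.8, 8.84 and 9.60 CPM at day 21, at 72.1, 76.0, 76.6, 72.2 and 88.7 CPM at day 30, and at 77.5, 73.0, 71.1, 62.1 and 77.6 CPM at day 45. Day 21 lay far below both later days, which overlapped each other, and day 21 replicates 1 and 2 were above replicates 3 and 4. Its level was 4.30-fold higher at day 45 than at day 21 (log2 2.11 ± 0.26 SE, edgeR adjusted p = 3.76e-06), 2.97 (log2) without day 21 replicates 1 and 2 and 1.59 without replicates 3 and 4. PFKFB3, whose kinase activity far exceeds its phosphatase activity, stood at 129, 114, 88.5 and 94.9 CPM at day 21, at 123, 126, 116, 100 and 108 CPM at day 30, and at 126, 141, 137, 132 and 138 CPM at day 45. Its days overlapped and it was 1.26-fold higher at day 45 than at day 21 (edgeR adjusted p = 0.0137), a call lost without day 21 replicate 3 and turned to -0.05 (log2) on the uncentred TPM scale. PFKFB2, known from heart, stood at 14.4, 16.3, 16.3 and 15.2 CPM at day 21, at 12.5, 11.5, 6.66, 8.97 and 9.52 CPM at day 30, and at 13.2, 17.5, 14.9, 17.1 and 15.5 CPM at day 45. Day 30 lay below both other days, which overlapped, and day 45 and day 21 differed by 0.01 ± 0.14 (log2 ± SE, edgeR adjusted p = 0.974). YOD1, on the opposite strand of PFKFB2, shares 315 exon bases with it and had counts equal to 88.9% of those of PFKFB2, so the low level of PFKFB2 is uncertain.

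All 9 genes from aldolase to pyruvate kinase rose between day 45 and day 21. ALDOC, the aldolase best known from brain, stood at 30.9, 27.8, 13.9 and 19.2 CPM at day 21, at 109, 106, 121, 108 and 86.8 CPM at day 30, and at 140, 119, 122, 107 and 128 CPM at day 45. The later days lay wholly above day 21 and overlapped each other, and the level at day 45 was 5.37-fold that of day 21 (log2 2.42 ± 0.19 SE, edgeR adjusted p = 9.15e-09). PGK1, which makes the first ATP of the pathway, stood at 385, 374, 243 and 302 CPM at day 21, at 747, 715, 791, 764 and 756 CPM at day 30, and at 933, 899, 929, 874 and 891 CPM at day 45. Its days did not overlap, the spread within day 30 and day 45 was narrow, and the level at day 45 was 2.78-fold that of day 21 (log2 1.47 ± 0.12 SE, edgeR adjusted p = 1.93e-08). ALDOA, the main aldolase, stood at 437, 403, 285 and 364 CPM at day 21, at 697, 672, 878, 725 and 679 CPM at day 30, and at 1301, 1256, 1015, 1020 and 1449 CPM at day 45. No libraries of different days overlapped for ALDOA, day 30 replicate 3 stood out from its day, and the level at day 45 was 3.24-fold that of day 21 (log2 1.70 ± 0.15 SE, edgeR adjusted p = 3.27e-08).

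ENO2, the enolase best known from neurons, had the highest fold change of the 36 genes and is described for that reason, after its values were seen. It stood at 15.9, 15.7, 5.50 and 5.18 CPM at day 21, at 35.3, 45.9, 54.2, 44.5 and 57.1 CPM at day 30, and at 155, 119, 70.6, 102 and 151 CPM at day 45. Each day lay above the one before, with wide spread at day 21 and day 45. The level at day 45 was 11.3-fold that of day 21 (log2 3.5 ± 0.36 SE, edgeR adjusted p = 1.02e-06), and the log2 change was 4.48 without day 21 replicates 1 and 2 and 2.93 without replicates 3 and 4. Of 8 neuron markers tested, 6 fell, 1 rose (SNAP25) and 1 was not called (TUBB3) between day 45 and day 21. All 13 on the list summed to 196 to 209 CPM at day 21 and 133 to 185 CPM at day 30. At day 45 they summed to 117 to 136 CPM, with STMN2 and GAP43 at 0 in all libraries. Most of the sum was MAP2, at 171, 129 and 101 CPM on average at days 21, 30 and 45. SNAP25 averaged 2.65, 13.6 and 7.91 CPM on these days. The part of these markers' cells in the ENO2 values was not tested. Per length ENO2 remained a minor enolase, at 104 ± 29.7 TPM against 2453 ± 116 TPM of ENO1 at day 45 (SD, n = 5).

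Among the other genes of this stretch, ENO1 was 2.85-fold higher at day 45 than at day 21, GAPDH 2.25-fold, TPI1 2.12-fold and PGAM1 1.58-fold (edgeR adjusted p = 4.89e-07, 1.91e-06, 7.36e-06 and 0.000128). GAPDH, which many assays use as a reference gene, averaged 2410 ± 389 CPM at day 21 (SD, n = 4), 4155 ± 504 CPM at day 30 and 5433 ± 568 CPM at day 45 (SD, n = 5 each). PKM, the pyruvate kinase, was 1.24-fold higher at day 45 than at day 21 (edgeR adjusted p = 0.0389), but its days overlapped. That call was lost without any 1 of day 21 replicates 3 and 4 and day 45 replicates 1 to 4, and the log2 change turned to -0.10 on the uncentred TPM scale. On GRCh38, GAPDH (6533927 to 6538374), TPI1 (6867119 to 6870948), ENO2 (6913745 to 6923698) and SLC2A3 (7919230 to 7936275) all lie on chromosome 12, as do PFKM and LDHB, which fell.

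**Figure D2:**
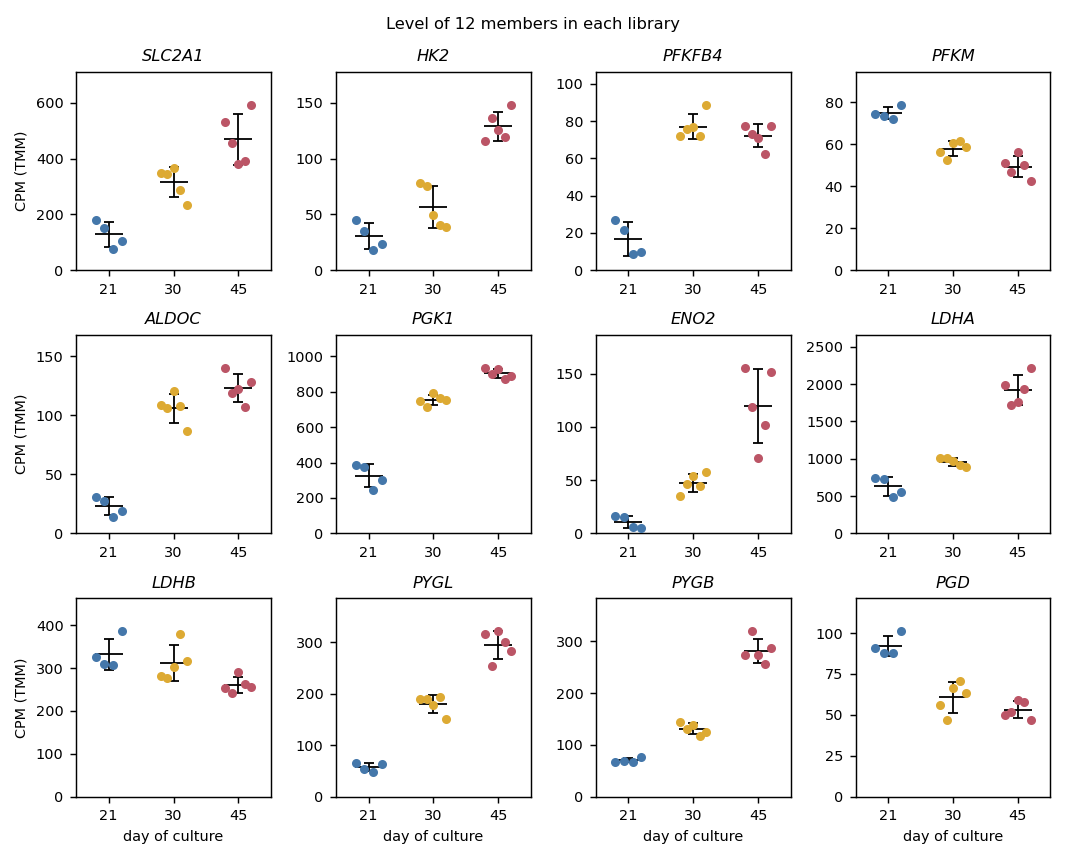
TMM-scaled CPM (linear axis from 0) of 12 of the genes in each library at days 21, 30 and 45, with the mean and SD of each day in black. In PFKFB4 and ALDOC the day 30 and day 45 points overlap, in LDHA the day 45 points start at 1723 CPM and all others end at 1014 CPM, and PFKM, LDHB and PGD are lower at day 45 than at day 21.

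Genes of lactate and pyruvate fate rose in 5 of 6 cases, and LDHB fell. LDHA encodes the lactate dehydrogenase subunit that favours making lactate, and stood at 746, 725, 484 and 558 CPM at day 21, at 1014, 1007, 975, 920 and 893 CPM at day 30, and at 1993, 1723, 1757, 1933 and 2215 CPM at day 45. Each day lay above the one before, and the level at day 45 was 3.06-fold that of day 21 (log2 1.61 ± 0.14 SE, edgeR adjusted p = 2.15e-08). LDHB, the heart subunit, stood at 326, 310, 307 and 386 CPM at day 21, at 281, 278, 303, 380 and 317 CPM at day 30, and at 253, 242, 291, 262 and 257 CPM at day 45. All day 45 libraries lay below all day 21 libraries, day 30 overlapped both, and LDHB fell by 0.35 ± 0.11 on the log2 scale (edgeR adjusted p = 0.0109). Without day 21 replicate 4, the highest library, LDHB was not called (log2 -0.26, edgeR adjusted p = 0.0582).

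PDK1 and PDK3 encode kinases that switch off pyruvate dehydrogenase and so keep pyruvate out of the mitochondria. PDK3 stood at 12.1, 13.6, 14 and 11.5 CPM at day 21, at 27.7, 27.8, 16.8, 14.6 and 18 CPM at day 30, and at 59.4, 44.3, 47.8, 49.2 and 59.9 CPM at day 45. The days did not overlap, but day 30 replicates 1 and 2 were far above replicates 3 to 5, and the level at day 45 was 4.06-fold that of day 21 (log2 2.02 ± 0.18 SE, edgeR adjusted p = 4.48e-08). PDK1 was 2.13-fold higher at day 45 than at day 21 (edgeR adjusted p = 0.00014). SLC16A3 encodes MCT4, the lactate exporter of glycolytic cells, and stood at 124, 117, 57.0 and 68.7 CPM at day 21, at 309, 285, 296, 262 and 219 CPM at day 30, and at 405, 353, 306, 291 and 368 CPM at day 45. Both later days lay above day 21 and overlapped each other, and the level at day 45 was 3.77-fold that of day 21 (log2 1.91 ± 0.20 SE, edgeR adjusted p = 4.26e-07). SLC16A1, which encodes the lactate and pyruvate carrier MCT1, was 3.26-fold higher at day 45 than at day 21 (edgeR adjusted p = 5.14e-07). CSNK1D, on the opposite strand of SLC16A3, shares 482 exon bases (5.36%) with it.

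All 6 glycogen genes rose, each more than 2-fold and with no overlap between day 45 and day 21, and they rose again between day 30 and day 45. PYGB, the brain form of glycogen phosphorylase, stood at 67.5, 69.5, 67.4 and 75.9 CPM at day 21, at 144, 131, 139, 117 and 125 CPM at day 30, and at 274, 319, 273, 257 and 286 CPM at day 45. Each day lay above the one before with little spread, and the level at day 45 was 4.02-fold that of day 21 (log2 2.01 ± 0.10 SE, edgeR adjusted p = 2.29e-11). PYGL, the liver form, stood at 65.7, 54.5, 46.8 and 62.5 CPM at day 21, at 190, 189, 178, 193 and 151 CPM at day 30, and at 316, 254, 321, 301 and 282 CPM at day 45. Its days did not overlap and its level at day 45 was 5.13-fold that of day 21 (log2 2.36 ± 0.12 SE, edgeR adjusted p = 5.16e-11), while 5 liver markers summed to at most 3.11 CPM at day 21, 3.91 CPM at day 30 and 0.263 CPM at day 45. PGM1, the phosphoglucomutase that joins glycogen to glycolysis, stood at 101, 92.2, 76.7 and 101 CPM at day 21, at 187, 166, 192, 187 and 156 CPM at day 30, and at 244, 223, 242, 231 and 222 CPM at day 45. Its days did not overlap either, and the level at day 45 was 2.51-fold that of day 21 (log2 1.33 ± 0.10 SE, edgeR adjusted p = 6.39e-09). GBE1, the branching enzyme, was 3.97-fold higher at day 45 than at day 21, and GYS1, the muscle glycogen synthase found in most tissues, 2.56-fold (edgeR adjusted p = 6.59e-09 and 5.01e-08). PGM2, known mainly as a phosphopentomutase, was 2.42-fold higher (edgeR adjusted p = 1.48e-06). Synthesis and breakdown enzymes thus both rose, and the summed level of the 6 genes was 245 ± 10.6 TPM at day 21 (SD, n = 4), 375 ± 49.3 TPM at day 30 and 589 ± 7.92 TPM at day 45 (SD, n = 5 each).

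The pentose phosphate members split. PGD, the second NADPH-producing enzyme of the oxidative branch, stood at 91.1, 87.9, 88.0 and 101 CPM at day 21, at 56.2, 46.6, 66.2, 70.5 and 63.4 CPM at day 30, and at 50.1, 51.6, 58.8, 58.1 and 47.0 CPM at day 45. Both later days lay below day 21 and overlapped each other, and PGD fell by 0.79 ± 0.11 on the log2 scale between day 45 and day 21 (edgeR adjusted p = 9.69e-06). TKT, a transketolase that returns pentoses to glycolysis, stood at 92.2, 87.1, 79.9 and 96.2 CPM at day 21, at 102, 95.6, 122, 114 and 99.7 CPM at day 30, and at 195, 197, 201, 177 and 218 CPM at day 45. Day 45 lay above the other days, which overlapped, and the level at day 45 was 2.22-fold that of day 21 (log2 1.15 ± 0.10 SE, edgeR adjusted p = 2.36e-08). TALDO1, the transaldolase of the same branch, stood at 55.1, 51.1, 48.3 and 62.1 CPM at day 21, at 61.5, 60.9, 85.2, 92.7 and 66.8 CPM at day 30, and at 90.9, 90.8, 117, 96.6 and 88.8 CPM at day 45. Day 30 overlapped both other days, and the level at day 45 was 1.79-fold that of day 21 (log2 0.84 ± 0.13 SE, edgeR adjusted p = 3.96e-05).

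**Figure D3:**
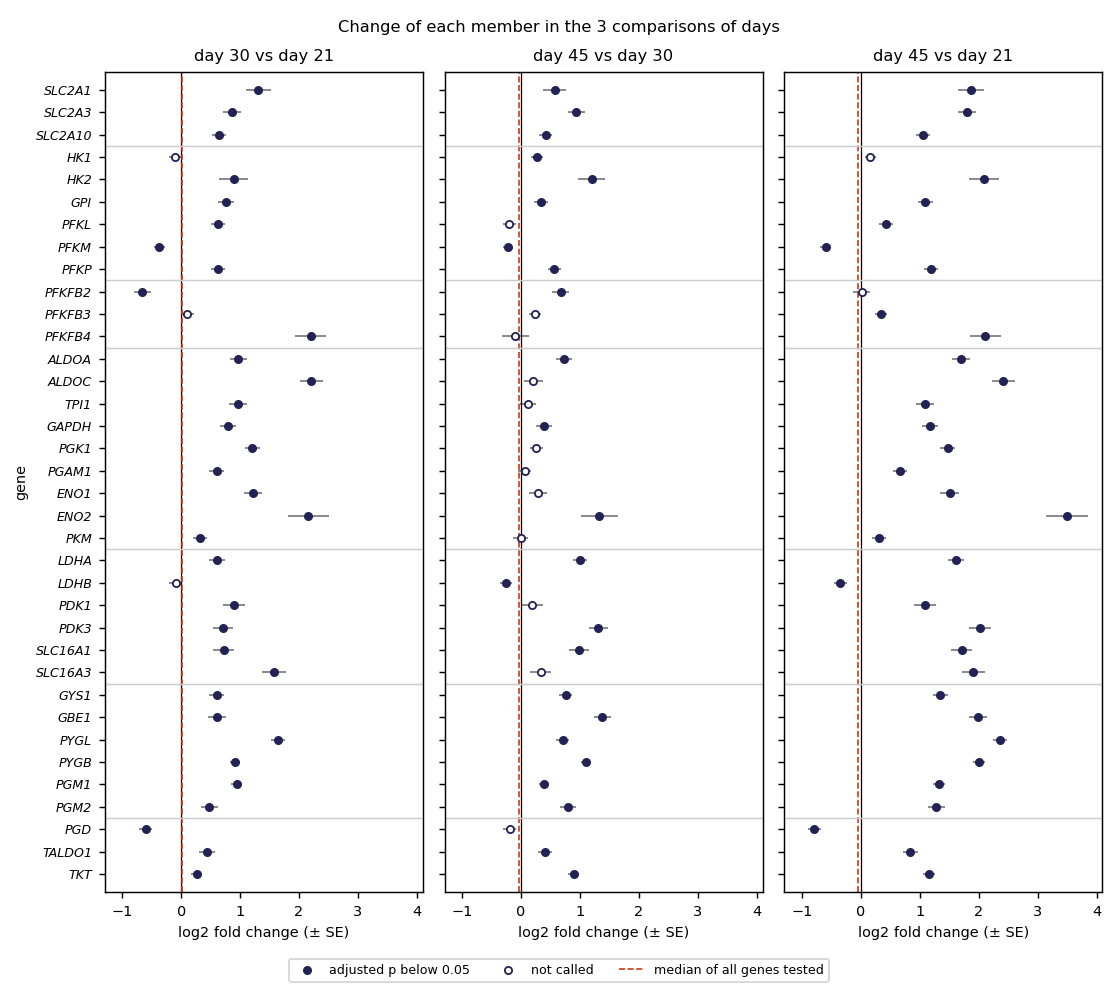
Log2 fold change with its SE (horizontal axis) of each of the 36 genes (rows, by role) in the 3 comparisons of days, each as the later day over the earlier one; filled points passed the edgeR adjusted p of 0.05 and the dashed line is the median of all genes tested. The dashed line lies near 0 in each panel, most points lie to its right in both comparisons with day 21, and the points of the glycogen genes lie to its right in all 3.

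The rise was spread over both intervals, but not alike for all genes. Between day 30 and day 21, 30 members rose, 3 fell and 3 were not called, where 54.4% of all genes tested were called, 27.2% higher and 27.1% lower. All day 30 libraries lay above all day 21 libraries for 25 members and below them for 3, where 42.4% of all genes tested had no overlap. The 3 that fell were PFKM, PFKFB2 and PGD, with log2 changes of -0.37, -0.66 and -0.60. Between day 45 and day 30, 22 rose, 2 fell and 12 were not called, where 56.3% of all genes tested were called, 27.6% higher and 28.7% lower. All day 45 libraries lay above all day 30 libraries for 21 members, where 19.8% of all genes tested did so and 38.4% had no overlap either way. With day 45 replicate 1 placed at day 30, as its treatment label reads, 12 rose and none fell. The falls of PFKM and LDHB were each lost when any 1 of several day 30 or day 45 libraries was left out. Without day 30 replicates 3 to 5 there were 27 rises and 3 falls between day 30 and day 21, and 18 rises and no fall between day 45 and day 30. Of all genes tested, 19.6% were then higher and 21.7% lower in the first comparison, and 19.6% and 19.3% in the second. On the uncentred TPM scale, where the median gene was lower by 0.35 (log2) at day 30 than at day 21, 14 rose and 6 fell, against 10% higher and 50.6% lower of all genes tested, and 5 genes, PKM, SLC16A1, PGM2, TALDO1 and TKT, turned negative. LDHA, for example, averaged 1189 ± 156 TPM in day 30 libraries (SD, n = 5) and 1178 ± 229 TPM in day 21 libraries (SD, n = 4). With TPM centred on the median gene, 25 rose and 3 fell, against 28.0% higher and 27.5% lower of all genes tested.

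Whether the later change differed from the earlier one was tested directly, as the log2 change of day 45 over day 30 minus that of day 30 over day 21, intervals of unequal length. It was higher for 3 members, lower for 10 and not called for 23, where 52.7% of all genes tested were called, 25.3% higher and 27.5% lower. PFKFB4 and ALDOC had the most negative differences, at -2.3 ± 0.40 and -2.0 ± 0.28 (log2 ± SE, edgeR adjusted p = 0.000197 and 2.55e-05). Their log2 changes were -0.10 and 0.21 between day 45 and day 30, and 2.20 and 2.21 between day 30 and day 21. Without day 21 replicates 1 and 2, PFKFB4 changed by 3.04 between day 30 and day 21 with a difference that remained called. PYGL (-0.94 ± 0.19), PGK1 (-0.95 ± 0.19), SLC16A3 (-1.25 ± 0.31) and PFKL (-0.83 ± 0.20) also had lower later changes (edgeR adjusted p = 0.00044, 0.000655, 0.00313 and 0.00227). PFKFB2 was the most positive, at 1.33 ± 0.25 (edgeR adjusted p = 0.000318), followed by GBE1 and TKT at 0.76 ± 0.25 and 0.62 ± 0.16 (edgeR adjusted p = 0.0151 and 0.00367). With an offset for gene length the PFKFB2 difference was 0.49. The GBE1 difference was 0.06 without day 30 replicates 3 to 5, and the GBE1 and TKT calls were lost with day 45 replicate 1 placed at day 30.

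**Figure D4:**
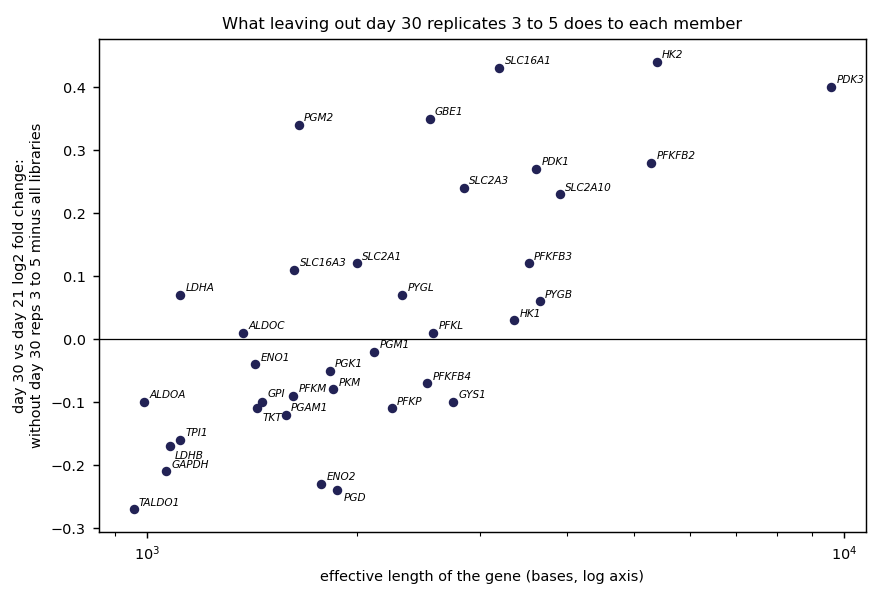
Shift of each member's log2 fold change of day 30 over day 21 when day 30 replicates 3 to 5 are left out (vertical axis) against its effective length in bases (horizontal log axis). Long genes such as HK2 (0.44) and PDK3 (0.40) shift up and short ones such as TALDO1 (-0.27) and GAPDH (-0.21) shift down. Some members depart from this: PGM2 (1650 bases) shifts by 0.34 and GYS1 (2746 bases) by -0.10. HK1 (3360 bases, 0.03) and PYGB (3659 bases, 0.06) hardly move.

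The day 30 values of single members were read with gene length in view, and its part in them was not tested. Over all genes tested, the median log2 change between day 30 and day 21 was 0.40 in the shortest of 5 equal length classes and -0.42 in the longest. Leaving out day 30 replicates 3 to 5 moved the day 30 over day 21 log2 change of HK2, the longest but 1 of the members, to 1.33, against 0.89 with all libraries, and that of PDK3 to 1.11, against 0.71. It moved TALDO1, the shortest member, to 0.17, against 0.44, which ended its call. With an offset for gene length in each library, PDK3 changed by 1.41 and PFKFB2 by -0.20, which was no longer called. Between day 45 and day 21, the median changes of the shortest and longest classes were 0.02 and -0.08. Leaving out day 30 replicates 3 to 5 moved no member there by more than 0.02 (log2, as rounded). Day 30 libraries enter that comparison only through the low-count filter, the scaling and the shared spread, so this says nothing about length.

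Within families of isozymes, the mix was compared as the share of the family's TPM, which does not depend on how libraries are scaled to each other. A family here holds only members, so ENO3, PYGM and PFKFB1, among others, are left out. In all, 33 exact two-sided permutation tests were run, for 11 families and 3 comparisons, with Benjamini-Hochberg adjustment, and the smallest p they can give is 0.00794. LDHA took 70.2, 69.2, 58.7 and 60.6% of LDHA plus LDHB at day 21, 75.8, 75.4, 75.6, 69.9 and 70.7% at day 30, and 88.7, 87.6, 85.9, 89.7 and 89.5% at day 45. Day 45 lay above both other days, and the share was 23.6 percentage points higher at day 45 than at day 21 (exact permutation p = 0.00794, adjusted p = 0.0138). HK2 took 16.6 ± 2.16% of HK1 plus HK2 in day 45 libraries (SD, n = 5) and 4.93 ± 1.82% in day 21 libraries (SD, n = 4), with no overlap (exact permutation adjusted p = 0.0138). PFKP took 45.2 ± 3.63% of the phosphofructokinase TPM at day 45 and 27.9 ± 1.43% at day 21, again with no overlap (exact permutation adjusted p = 0.0138). PFKFB4 stood at 41.0 ± 3.01% of its family at day 45 and 16.3 ± 5.82% at day 21 (exact permutation adjusted p = 0.0138). Its mean share was highest at day 30, at 46.2 ± 1.79%, with a difference of -5.24 percentage points between day 45 and day 30 (exact permutation adjusted p = 0.021). Day 30 replicates 3 to 5, which differ from the rest by gene length, held 47.9, 46.8 and 47.5%. Day 30 replicates 1 and 2 held 43.4 and 45.6%, which overlaps the 37.7 to 45.0% of day 45.

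Some shares were highest at day 30. ALDOC took 4.85, 4.89, 3.46 and 3.49% of aldolase TPM at day 21, 10.2, 10.2, 8.72, 9.49 and 8.5% at day 30 and 7.51, 6.54, 7.96, 7.02 and 6.16% at day 45. No days overlapped, so that ALDOC lost 2.37 percentage points to ALDOA between day 45 and day 30 (exact permutation adjusted p = 0.0138). The shares of PYGL and SLC16A3 were likewise 7.61 and 7.36 percentage points lower at day 45 than at day 30 (exact permutation adjusted p = 0.0138 and 0.021), and did not pass the test between day 45 and day 21 (exact permutation adjusted p = 0.0561 and 0.0903). The 4 genes of those families differ in length, on which day 30 replicates 3 to 5 differ from the rest, so the other day 30 libraries are given apart. PYGL took 52.6 to 58.8% in day 21 libraries, 67.9 and 68.2% in day 30 replicates 1 and 2, and 54.9 to 64.7% in day 45 libraries. SLC16A3 took 64.8 to 76.8%, then 83.8 and 81.0%, and then 73.0 to 82.2% in the same libraries, so its day 30 and day 45 values overlap there. PGM1 took 77.5 to 82.4% of PGM1 plus PGM2 in day 21 libraries, 83.1 and 82.6% in day 30 replicates 1 and 2, 88.2 to 90.9% in day 30 replicates 3 to 5, and 77.8 to 81.6% in day 45 libraries. Its difference between day 45 and day 30 was -6.95 percentage points (exact permutation adjusted p = 0.0138), and -2.7 without day 30 replicates 3 to 5. With only day 30 replicates 1 and 2 left, no adjusted p of this test could pass, so the test decides nothing there. PDK1 gave way to PDK3 late, at 72.0 ± 4.93% of their TPM at day 45 and 83.7 ± 1.70% at day 30 (SD, n = 5 each, exact permutation adjusted p = 0.0138). ENO2 took 4.09 ± 1.23% of ENO1 plus ENO2 TPM at day 45 and 0.981 ± 0.352% at day 21 (exact permutation adjusted p = 0.021). ENO3, left out of that share, averaged 9.6 CPM at day 21, 8.1 CPM at day 30 and 2.63 CPM at day 45. The SLC2A1 share was 2.84 percentage points higher at day 45 than at day 21 (exact permutation adjusted p = 0.144), and 8.0 with the copies of SLC2A3 added, where it passed the test (adjusted p = 0.0131).

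**Figure D5:**
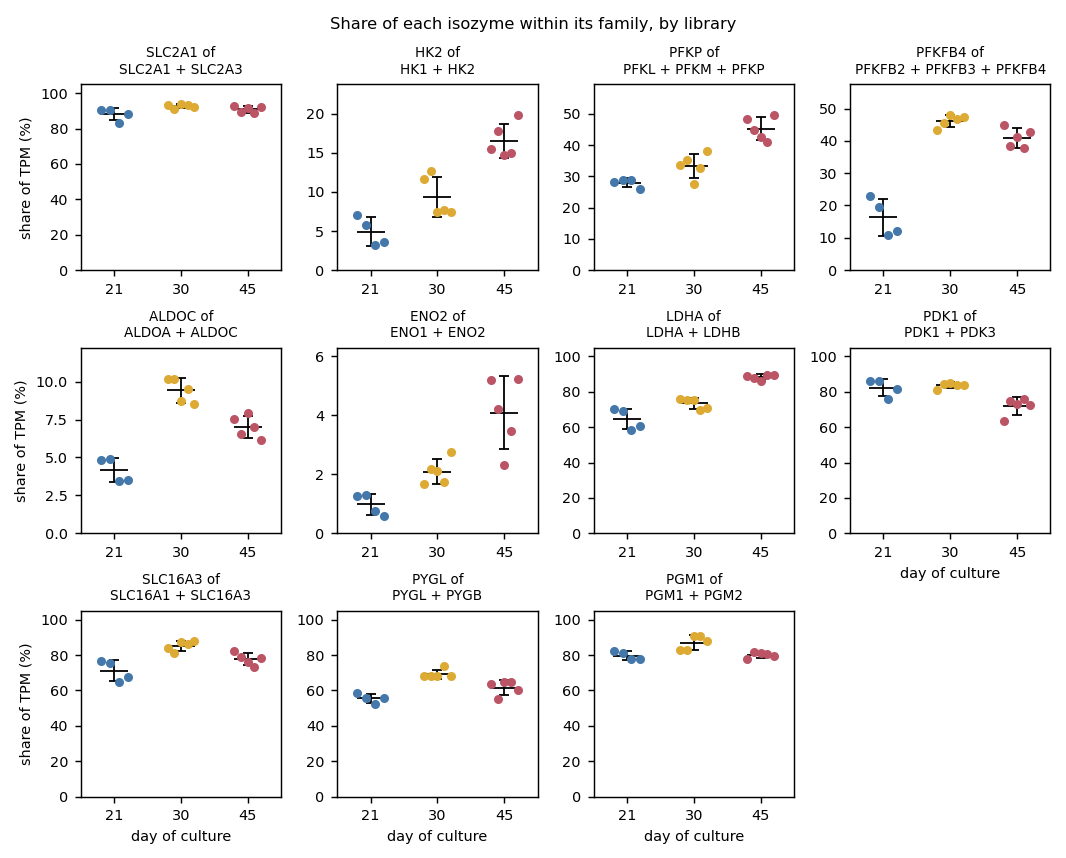
Share of TPM (vertical axis, percent) that 1 isozyme takes of its family in each library at days 21, 30 and 45 for 11 families, with the mean and SD of each day in black. The LDHA, HK2 and PFKP shares are highest at day 45, and the means of the PFKFB4, ALDOC, PYGL, SLC16A3 and PGM1 shares are highest at day 30, that of PGM1 mainly in replicates 3 to 5.

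Other genes of these pathways were read against the 27.1% higher and 30.5% lower of all genes tested between day 45 and day 21. Of 32 further genes of glycolysis, 19 passed the filter, and between day 45 and day 21 there were 7 that rose and 7 that fell. EMB, a partner of lactate carriers, fell by 1.97 ± 0.19 (log2 ± SE), while the carrier SLC16A7 and the inositol transporter SLC2A13 rose by 1.51 ± 0.26 and 1.76 ± 0.29 (edgeR adjusted p = 1.49e-07, 9.53e-05 and 9.17e-05). Of 13 genes of pyruvate entry into mitochondria, all tested, 7 rose and 2 fell. PDK4, a kinase of pyruvate dehydrogenase, averaged 13.9 ± 6.52 CPM at day 21 (SD, n = 4), 11.3 ± 2.48 CPM at day 30 and 43.0 ± 6.47 CPM at day 45 (SD, n = 5 each). It rose by 1.63 ± 0.25 between day 45 and day 21, and PDHX, a structural subunit of the complex, by 0.96 ± 0.11, while PDK2, another kinase, fell by 0.87 ± 0.10 (log2 ± SE, edgeR adjusted p = 3.22e-05, 1.06e-06 and 1.41e-06). Of 8 genes of gluconeogenesis, 3 were tested. PCK2, the mitochondrial PEP carboxykinase, rose by 1.91 ± 0.15 (log2 ± SE, edgeR adjusted p = 1.17e-08), and G6PC3 and SLC37A4, of the glucose 6-phosphatase system, fell by 0.56 ± 0.11 and 0.51 ± 0.11 (edgeR adjusted p = 0.000347 and 0.000951).

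Of 26 further genes of glycogen metabolism, 24 were tested, and 9 rose and 4 fell between day 45 and day 21. PPP1R3C, which targets protein phosphatase 1 to glycogen and thereby activates the synthase, averaged 7.15 ± 1.73 CPM at day 21 (SD, n = 4), 42.0 ± 8.43 CPM at day 30 and 211 ± 33.4 CPM at day 45 (SD, n = 5 each). It rose by 4.88 ± 0.20 between day 45 and day 21 (log2 ± SE, edgeR adjusted p = 6.86e-12), more than any of the 36 members. UGP2, which makes the UDP-glucose used by the synthase, rose by 1.51 ± 0.13 (edgeR adjusted p = 2.62e-08). PYGM, the muscle phosphorylase, averaged 1.55 ± 0.796 CPM at day 21 (SD, n = 4), 26.1 ± 2.08 CPM at day 30 and 13 ± 0.636 CPM at day 45 (SD, n = 5 each). It rose by 3.06 ± 0.23 between day 45 and day 21 (log2 ± SE, edgeR adjusted p = 4.98e-09) and fell by 1.01 ± 0.18 between day 45 and day 30 (edgeR adjusted p = 0.000181). The 9 skeletal muscle markers summed to 13.7 to 16.7 CPM at day 21, 25.9 to 46.1 CPM at day 30 and 26.7 to 49.4 CPM at day 45, and of the 4 tested between day 45 and day 21, TNNT3 and DES rose while MYH3 and TNNT1 fell. Their part in the PYGM values was not tested. Of 11 further genes of the pentose phosphate pathway, 9 were tested, and 6 rose and 2 fell. PGLS, the lactonase of the oxidative branch, rose by 0.72 ± 0.12, and RPE, of the non-oxidative branch, and PRPS1, which makes the ribose donor of nucleotides, by 0.46 ± 0.10 and 0.46 ± 0.09 (log2 ± SE, edgeR adjusted p = 6.5e-05, 0.000693 and 0.000323).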

How the data were processed

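RNA of WA01 cartilage pellets was made into libraries with TruSeq RNA v2 after RNeasy micro extraction, per the labels' protocols. The submitters' processing notes name STAR 2.4.2a, RSEM 1.2.25 and the build GRCh38, and the gene annotation they used is not given in these sources. The deposited expected counts were rounded and fitted for 14 libraries at once with edgeR 4.0.16 (filterByExpr with the 3 days as groups, TMM, robust quasi-likelihood F-test), with a mean per day. Benjamini-Hochberg adjustment ran over all 17838 genes tested, and the test was checked on simulated data. CPM was computed from those counts. The deposited TPM served for levels between genes, isozyme shares and alternatives in limma 3.58.1, on log2(TPM + 1) and log2(TPM + 0.1). The effective length of each gene, per the file headers, served for the length checks.

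The library titled day 45 replicate 1 was grouped by its title. Same-numbered libraries of different days had correlated deviations of -0.25 to 0.12 in 13 pairs, so they were not paired. No 2 replicates agreed within sampling noise (chi-square per degree of freedom 7.96 to 174 in 26 pairs). Positions are from GENCODE 29. The kit does not mark strand. Members and gene lists were chosen with earlier results of these data known. Values in every library are given for up to 3 members per role with the smallest adjusted p between day 45 and day 21, for members moving against their role and for members not called; of other pathway genes, up to 3 per list with the largest change at 10 CPM or more are named. Alternatives were DESeq2 1.42.0 and its size factors, other low-count filters, both TPM scales, a replicate block, leaving out each library, the label conflict, leaving out day 30 replicates 3 to 5, a length offset, fits of only the days compared, adding processed copies and, chosen after seeing the data, leaving out day 21 replicates 1 and 2 or 3 and 4.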

Additional observations from a re-analysis of the deposited data

Results flagged for a closer look

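Within a day, 7 of 141 groups of 4 or 5 libraries (member levels and isozyme shares) held 1 library far from the others, and chance alone flags about 1 group in 20. At day 30, GPI stood at 260.0 CPM in replicate 3, against 199 to 212 CPM in the other 4 libraries. ALDOA stood at 878 CPM in the same library, against 672 to 725 CPM in the others. PFKFB4 stood at 88.7 CPM in day 30 replicate 5, against 72.1 to 76.6 CPM. At day 45, TALDO1 stood at 117 CPM in replicate 3, against 88.8 to 96.6 CPM. The PFKP share of its family was 25.8% in day 21 replicate 4, against 28.3 to 28.8% in the other 3 libraries. At day 30 the PDK1 share was 80.8% in replicate 1, against 84.0 to 85.0%, and the PYGL share was 73.7% in replicate 4, against 67.9 to 68.4%.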

How the results depend on the processing

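Of 31 rises and 3 falls between day 45 and day 21, 28 and 2 kept their call under the 27 alternatives other than the uncentred TPM scales; the others were PFKL, PFKFB3, PKM and LDHB. Of 30 rises and 3 falls between day 30 and day 21, 23 and 2 kept it, and of 22 and 2 between day 45 and day 30, 10 and 0. The causes were not tested.

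On log2(TPM + 1), members called higher and lower were 14 and 6 between day 30 and day 21 and 15 and 4 for the later minus the earlier change, and 1 was lower between day 45 and day 30. Genes called over all were then 2140 higher and 8720 lower (day 45 over day 21), 1788 and 9032 (day 30 over day 21) and 7348 and 2331 (later minus earlier). On log2(TPM + 0.1) the member counts were the same, 14 and 6, 15 and 4, and 1 lower, and the counts over all genes 2119 and 8641, 1749 and 8892, and 7083 and 2356. Centred TPM gave 10 members higher and 10 lower for the later minus the earlier change and 1 lower between day 45 and day 30. Of all genes tested, 27.1% were higher and 26.1% lower in the first, and 25.3% lower in the second. On log2(TPM + 1) the sign turned for HK1 (-0.29), PFKFB3 (-0.05) and PKM (-0.10) between day 45 and day 21. It turned for PKM (-0.17), SLC16A1 (-0.07), PGM2 (-0.33), TALDO1 (-0.03) and TKT (-0.25) between day 30 and day 21, for PFKM (0.04) between day 45 and day 30, and for GPI (0.69), LDHB (0.34) and TALDO1 (0.46) in the later minus the earlier change. On log2(TPM + 0.1) these were -0.29, -0.05 and -0.10, then -0.17, -0.07, -0.35, -0.03 and -0.26, then 0.04, then 0.70, 0.34 and 0.47. Centred TPM turned PFKM to 0.01 between day 45 and day 30.

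No low-count filter, leaving out day 30 replicates 3 to 5, either pair of day 21 libraries (chosen after seeing the data), the length offset and day 45 replicate 1 placed at day 30 each gave 0 members lower between day 45 and day 30. Under these settings 14.6 to 27.2% of all genes tested were lower there. The placement of day 45 replicate 1 at day 30 gave 12 members higher there (3036 of all genes). For the later minus the earlier change it gave 1 higher, against 17.7% of all genes tested. The length offset gave 7 higher for that change, against 22.5%. Without day 30 replicates 3 to 5, 2848 genes were higher and 2811 lower in that difference, and SLC16A1 turned to -0.61. The length offset turned LDHB to 0.00 between day 45 and day 30, and PDK3 (-0.73) and TALDO1 (0.53) in the difference. Leaving out 1 library at a time gave 29 to 31 members higher and 2 to 3 lower (day 45 over day 21), 28 to 30 and 3 (day 30 over day 21), 20 to 25 and 0 to 3 (day 45 over day 30), and 3 to 5 and 9 to 13 (later minus earlier). With a replicate block the counts were 30 and 3, 28 and 3, 22 and 2, and 3 and 11. No called isozyme share changed direction, 552 values kept their side of the threshold, 102 lost their call and 6 gained one. Of those losses, 27 came without day 30 replicates 3 to 5, and 20 each without day 21 replicates 1 and 2 or 3 and 4. These settings leave 2 libraries in a day, so the smallest p the exact test can give is larger. Losses there follow largely from that limit. All members had counts in every library.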
